A study of Mus musculus with 4 samples.

Results

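The genes described here are 54 components of the Notch and Wnt signalling pathways, measured on arrays of mouse hematopoietic stem and progenitor cells with and without Klf7. They were taken by symbol from the array's annotation: every gene named Wnt, Fzd or Notch followed by its number, plus 20 further ligands, co-receptors, cytoplasmic regulators, nuclear factors and target genes. A probe set had to list a single symbol, and the brightest of a gene's probe sets over all arrays stood for the gene. This gave 54 genes and 56 probe sets, out of 19938 named genes and 28939 probe sets tested. The rule used no difference between genotypes.

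There were 2 groups. The knockout group, Klf7-/-, was measured on 2 arrays, and the wild-type group, Klf7+/+, on 2 arrays. Each array held amplified total RNA of bone marrow cells of the KLS gate (negative for lineage markers, positive for c-Kit and Sca-1), on the C57Bl/6 background, from chimeric mice that had been made with fetal liver cells and carried marrow of both genotypes. The age of the mice, the number of mice or embryos behind an array, the way the genotypes were told apart in the sort, the host cells that remained and the deleted part of Klf7 are not given in the sources used here. Since the labels do not tie the arrays to separate animals, p-values here reflect spread among these 4 samples alone, part of which may be technical.

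Notch receptors are read out by contact: a Delta-like or Jagged ligand on a neighbouring cell leads to cleavage of the receptor, and the freed intracellular domain joins the DNA-binding protein RBPJ and a Mastermind coactivator to switch on Hes and Hey repressor genes. Wnt proteins are secreted lipid-modified ligands of Frizzled receptors and their LRP co-receptors. When bound, they stop a complex of Axin, APC and the kinase GSK3 from marking beta-catenin for destruction, so that beta-catenin can act with TCF/LEF factors. In blood, Notch signalling is best known for committing progenitors to the T cell lineage, and both pathways have been studied as signals between marrow niche cells and stem cells.

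Facts of the whole data set bear on every value below. Array medians lay between 51.01 and 52.3 intensity units, and log2 intensities correlated across probe sets at Pearson's r of 0.961 to 0.969 between arrays. Klf7 itself, a zinc finger transcription factor gene, read 6.59 and 6.18 (log2) on the knockout arrays and 5.95 and 6.10 on the wild-type arrays, so the probe set was not lower in knockout. Xist read 11.76 and 11.58 in knockout against 5.24 and 4.80 in wild type, and the Y-linked gene Uty read 3.34 and 3.52 in knockout against 6.13 and 6.48 in wild type. Genotype and these sex-linked transcripts divided the arrays identically and cannot be told apart. None of the 54 genes lies on the X or Y chromosome. Of the gate's genes, Kit read 10.12 and 9.92 in knockout against 9.55 and 9.71 in wild type. Ly6a, the Sca-1 gene, was listed as a marker but had no measured value under its own symbol. Cd34, a progenitor marker that is not part of the gate, read 10.24 and 10.22 in knockout against 9.65 and 9.57 in wild type. Of 11 measured stem and progenitor markers, 9 were higher in knockout, 7 of them without overlap, where 14.5% of all genes lay above without overlap. The largest difference of that list ran the other way: Mecom, a stem cell transcription factor gene, read 6.25 and 6.13 in knockout against 7.20 and 6.59 in wild type. The summed intensity of the 11 markers was 5958 and 5971 in knockout against 4883 and 4376 in wild type. The summed intensity of 10 T cell markers was 594 and 670 in knockout against 602 and 683 in wild type, that of 9 endothelial markers 683 and 740 in knockout against 751 and 761 in wild type, and that of 8 stromal markers 427 and 404 in knockout against 428 and 443 in wild type. For 14 granulocyte and monocyte markers the sum was 4641 and 2513 in knockout against 3824 and 3305 in wild type. For 9 B cell markers it was 728 and 373 in knockout against 429 and 371 in wild type. Of these, Vpreb1 alone read 8.59 on knockout replicate 1, beside 5.49 on knockout replicate 2 and 5.57 and 5.35 in wild type. The sum of 6 erythroid markers was 501 and 568 in knockout against 494 and 484 in wild type. That of 7 megakaryocyte and platelet markers was 920 and 772 in knockout against 881 and 687 in wild type. Of the granulocyte and monocyte markers 6 were higher and 8 lower in knockout, and of the B cell markers 5 and 4. Of the erythroid markers 3 were higher and 3 lower, and of the megakaryocyte and platelet markers 5 and 2. The part of these lists in the results was not tested. In sorted bulk samples, fewer cells of a type and less RNA per cell cannot be told apart.

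Across the pathways, none of the 54 genes was called different between knockout and wild type. In limma, fitted over all probe sets, 0 of 54 genes had a Benjamini-Hochberg adjusted p under 0.05, against 0.00502% of all genes and 0.00346% of all probe sets, and the smallest adjusted p was 0.945. The only gene called on the whole array was Xist, which divided the arrays as genotype did (limma adjusted p = 0.0454). At an unadjusted p under 0.05 there was 1 gene of the 54, Fzd6, where 4.81% of all genes reached that level. Differences in log2 intensity, always knockout minus wild type, ran from -0.40 for Axin2 to 0.60 for Tcf7l2. Their median was -0.0088, where the median over all genes was -0.026. Knockout was higher for 24 genes and lower for 30, and 45% of all genes were higher in knockout.

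The gap between replicates of a group was usually wider than the difference between genotypes. The median absolute difference of the 54 genes was 0.11, beside a median replicate gap of 0.17 in knockout and of 0.18 in wild type. Over all genes the corresponding values were 0.16, 0.21 and 0.23. The difference exceeded the gap in both groups for 10 of the 54 genes, or 18.5%, and for 21.5% of all genes. Both knockout arrays lay above both wild-type arrays for 2 genes, Fzd6 and Tcf7l2, where 14.5% of all genes did so. Both knockout arrays lay below both wild-type arrays for 11 genes, where 18.6% of all genes did so. These were Wnt1, Wnt5a, Wnt7a, Wnt7b, Wnt10a, Wnt11, Lrp6, Apc, Axin2, Tcf7l1 and Hes6. Together with Fzd6 and Tcf7l2 they are 24.1% of the 54 genes, below the 33.2% of all genes whose groups did not overlap in either direction. At least 1.5-fold apart without overlap was 1 gene, Tcf7l2, and 5.14% of all genes.

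**Figure D1:**
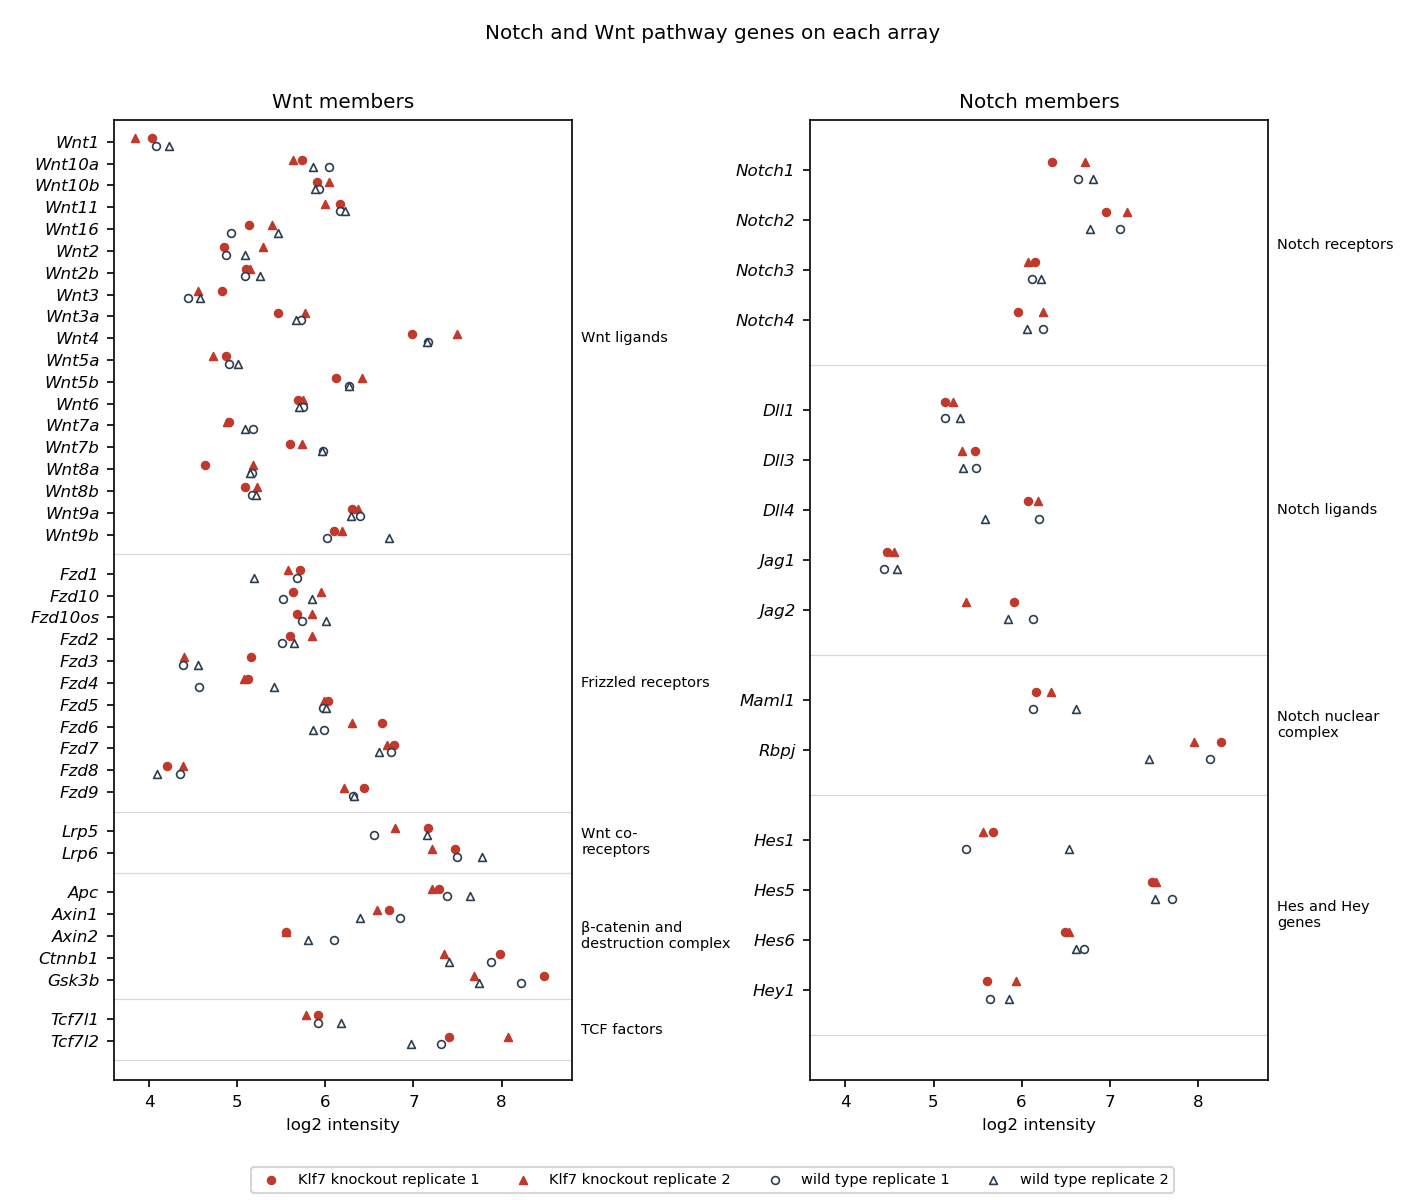
Log2 intensity (x axis) of each of the 54 genes (rows, grouped by role) on the 2 knockout arrays (filled) and the 2 wild-type arrays (open), with circles for replicate 1 and triangles for replicate 2. For Ctnnb1 and Gsk3b both circles lie above both triangles, whereas for Fzd6 both filled symbols lie above both open ones; levels of different genes come from different probes and are not comparable.

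Among the 19 Wnt ligand genes, 6 were higher and 13 lower in knockout, and 6 lay below wild type without overlap. That is 31.6% of the ligands, and the 18.6% of all genes stands beside it. Of the 19 ligand genes, 8 had a mean level above the median of all genes, 5.77. Of those 6, Wnt7b, Wnt10a and Wnt11 lay above that median, and Wnt1 (4.04), Wnt5a (4.88) and Wnt7a (5.01) below it. Wnt7b read 5.60 and 5.74 in knockout against 5.98 and 5.97 in wild type, differing by -0.30 ± 0.16 (SE, n = 2 per group; limma adjusted p = 0.949). The readings of the groups did not overlap, and the size was only 1.24-fold, higher in wild type. The wild-type arrays differed from each other by 0.012 and the knockout arrays by 0.14. The 95% confidence interval of the difference ran from -0.72 to 0.11, so its direction is not settled. Wnt10a read 5.74 and 5.63 in knockout against 6.04 and 5.86 in wild type. Its difference of -0.27 ± 0.17 was the second largest among the ligands. Wnt7a, which shares much of its sequence with Wnt7b, read 4.91 and 4.88 in knockout against 5.18 and 5.08 in wild type, differing by -0.24 ± 0.15.

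The other ligands that lay below wild type without overlap were separated by less. Wnt11, a ligand of the beta-catenin-independent branch, read 6.17 and 5.99 in knockout against 6.17 and 6.22 in wild type. Here knockout replicate 1, at 6.165, and wild-type replicate 1, at 6.171, nearly met. Wnt5a, best known for that same branch, differed by -0.16 ± 0.16 and Wnt1, the family's founding member, by -0.22 ± 0.17. Wnt8a differed by -0.25 ± 0.23, with 4.64 and 5.18 in knockout against 5.16 and 5.14 in wild type, so knockout replicate 1 alone stood apart. Wnt9b differed by -0.23 ± 0.28 because wild-type replicate 2 read 6.73, beside 6.09 and 6.19 in knockout and 6.02 in wild-type replicate 1; without that array the difference was 0.12.

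Wnt4, which has 2 probe sets, gave overlapping groups in both. The brighter probe set read 6.98 and 7.49 in knockout against 7.17 and 7.15 in wild type, differing by 0.076 ± 0.22. The dimmer probe set differed by 0.068 ± 0.25. Wnt10b, a ligand expressed by blood and marrow cells, read 5.90 and 6.04 in knockout against 5.92 and 5.88 in wild type. Wnt3a, the ligand most used to stimulate beta-catenin signalling in culture, read 5.47 and 5.76 in knockout against 5.73 and 5.66 in wild type. Wnt5b read 6.12 and 6.42 in knockout against 6.26 and 6.27 in wild type, and Wnt9a read 6.31 and 6.36 in knockout against 6.40 and 6.29 in wild type. The groups overlap in all of these. The remaining ligands, Wnt2, Wnt2b, Wnt3, Wnt6, Wnt8b and Wnt16, also overlapped, with differences between -0.045 for Wnt2b and 0.18 for Wnt3.

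Of 11 genes with an Fzd symbol, 9 were higher in knockout, and of these only Fzd6 was higher without overlap, where 14.5% of all genes were. Whether the Frizzled and Wnt ligand genes differ as groups was not tested. Fzd6, whose product acts mainly in planar cell polarity, read 6.65 and 6.30 in knockout against 5.99 and 5.86 in wild type. Knockout exceeded wild type by 0.55 ± 0.19 (SE, 2 arrays per group; 95% confidence interval 0.043 to 1.06), or 1.47-fold higher in knockout, with an unadjusted p of 0.0389 and a limma adjusted p of 0.945. All knockout readings were above all wild-type readings, and the gap between the knockout arrays was 0.35. The difference stood at 0.38 without knockout replicate 1 and at 0.73 without knockout replicate 2.

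No other Frizzled gene came near that separation. Fzd3 had the next largest difference, 0.31 ± 0.30, with 5.16 and 4.40 in knockout against 4.38 and 4.55 in wild type. Its size came from knockout replicate 1, and without that array the difference was -0.070. Fzd1 differed by 0.21 ± 0.22 and Fzd2 by 0.15 ± 0.18. Fzd4 read 5.12 and 5.08 in knockout against 4.57 and 5.41 in wild type, so the wild-type arrays lay on either side of the knockout pair.

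Fzd7 and Fzd5 differed little on any array. Fzd7 read 6.78 and 6.70 in knockout against 6.75 and 6.61 in wild type. Fzd5 read 6.03 and 5.98 in knockout against 5.97 and 6.01 in wild type. Fzd9, whose product is a Wnt receptor described in B cell development in mice, read 6.43 and 6.21 in knockout against 6.31 and 6.33 in wild type, with a mean of 6.32 in either group. Fzd8 and Fzd10 overlapped, with differences of 0.076 and 0.11. Fzd10os is an opposite-strand transcript of the Fzd10 locus and not a receptor gene; its probe set read 5.68 and 5.84 in knockout against 5.74 and 6.00 in wild type.

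The LRP co-receptors, which bind Wnt together with a Frizzled, did not move together. Lrp6 read 7.47 and 7.21 in knockout against 7.50 and 7.78 in wild type, differing by -0.29 ± 0.20 (SE, n = 2 per group; limma adjusted p = 0.953). Both knockout readings lay below the wild-type readings, although knockout replicate 1 and wild-type replicate 1 nearly met, and the difference was -0.15 without wild-type replicate 2. Lrp5 read 7.17 and 6.79 in knockout against 6.55 and 7.15 in wild type, and its difference of 0.13 ± 0.28 turned to -0.18 without wild-type replicate 1.

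**Figure D2:**
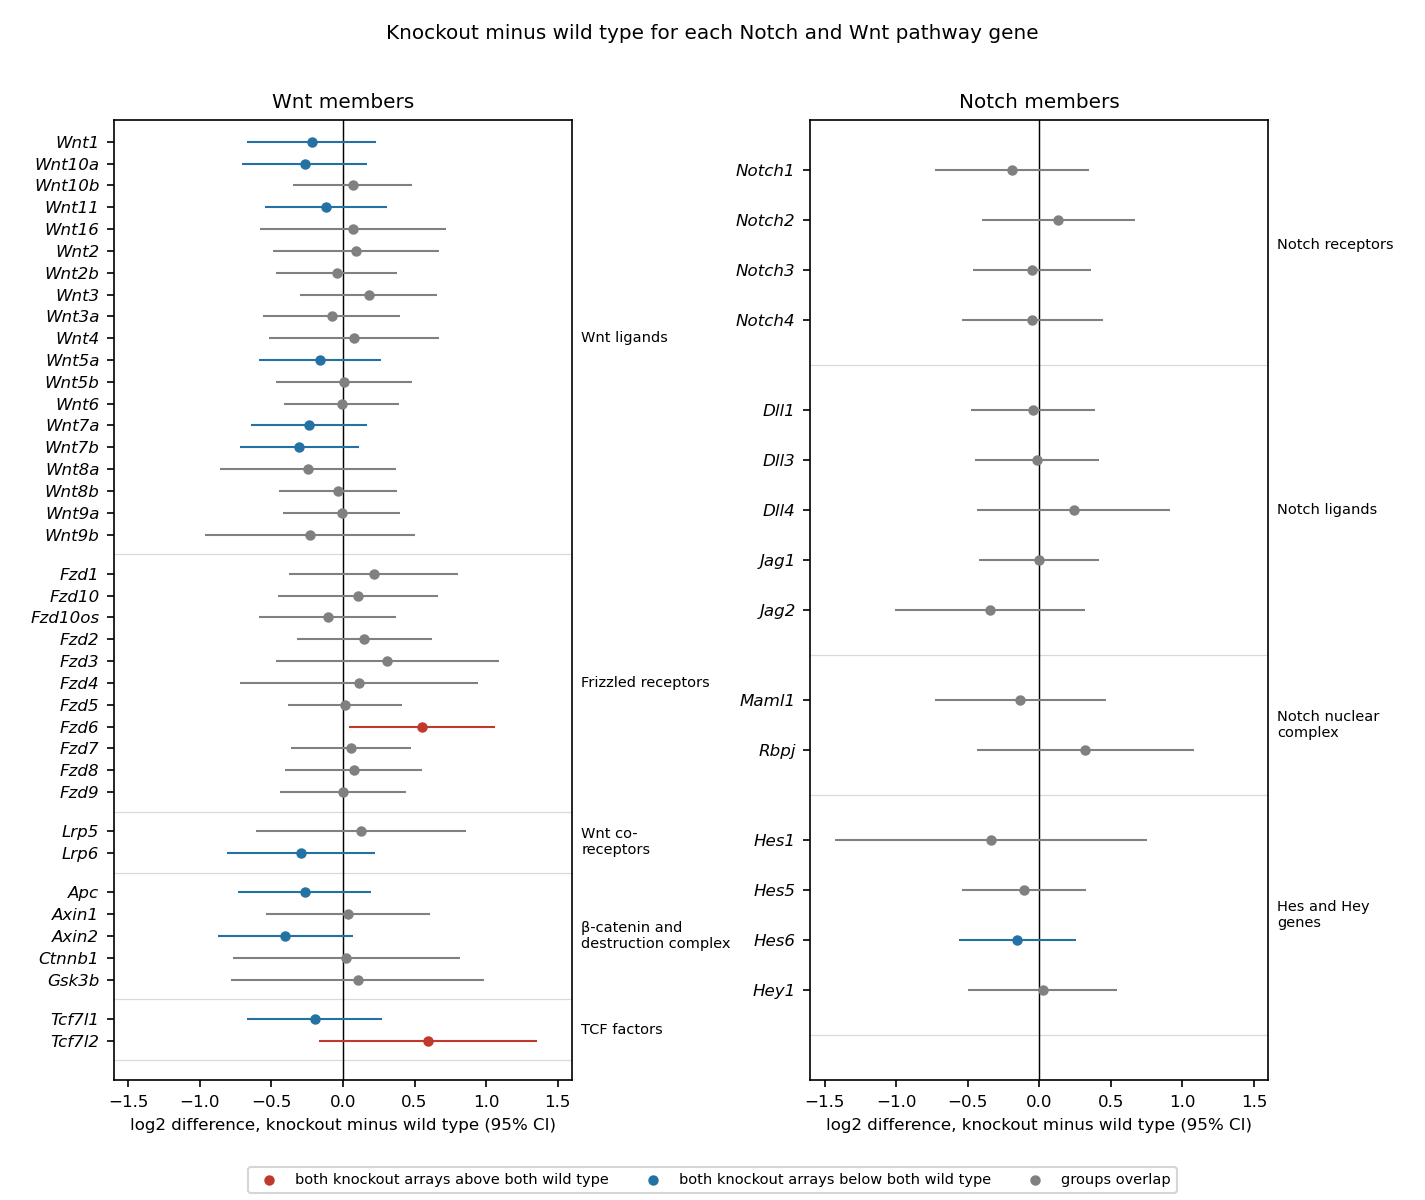
Difference in log2 intensity, knockout minus wild type, for each of the 54 genes, with the 95% confidence interval of the limma fit (n = 2 arrays per group). Points are coloured by whether the groups overlap; the interval of Fzd6 (0.043 to 1.06) is the only one that leaves out 0, before any adjustment for the number of genes.

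Of beta-catenin and 4 regulators of its turnover, 3 genes were higher and 2 lower in knockout, and for Ctnnb1, Gsk3b and Axin1 the replicates of either group lay farther apart than the group means. Ctnnb1, the beta-catenin gene, read 7.99 and 7.35 in knockout against 7.88 and 7.41 in wild type, differing by 0.023 ± 0.30. Gsk3b, which encodes the kinase that marks beta-catenin for destruction, read 8.48 and 7.69 in knockout against 8.22 and 7.75 in wild type, differing by 0.10 ± 0.34. In both genes replicate 1 was the higher array in either genotype. Axin1, the scaffold gene, read 6.73 and 6.58 in knockout against 6.85 and 6.40 in wild type. Apc, another scaffold gene of the complex, read 7.29 and 7.21 in knockout against 7.38 and 7.65 in wild type, differing by -0.27 ± 0.18 without overlap, and by -0.13 without wild-type replicate 2.

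Axin2 is both a member of the destruction complex and a target gene that beta-catenin switches on, and so is widely used as a readout of Wnt signalling. It read 5.55 and 5.55 in knockout against 6.10 and 5.81 in wild type. Its mean over all arrays was 5.75, just under the median of all genes, 5.77. The difference of -0.40 ± 0.18 (SE, n = 2 per group; 95% confidence interval -0.87 to 0.069) was the lowest of the 54 genes, 1.32-fold higher in wild type, with a limma adjusted p of 0.945. The knockout arrays differed by 0.0055 and the wild-type arrays by 0.30. The difference was -0.26 without wild-type replicate 1 and -0.55 without wild-type replicate 2.

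The promoters of Axin2 and Hes5 are shown because these genes are the transcriptional readouts of the Wnt and Notch pathways among the members with a sequence in the RefSeq promoter table for GRCm38.p6. Each window holds 300 bases, most of them before the annotated start, and 39 of the 54 genes had a window. Capitals mark any match, on either strand, to an RBPJ motif (GTGGGAA or its reverse complement TTCCCAC), a TCF/LEF motif (CTTTGAT or ATCAAAG) or a KLF motif (CACACCC or GGGTGTG). The Axin2 window is chr11:108920099-108920398 on the plus strand and the Hes5 window is chr4:154960673-154960972 on the plus strand.
Axin2: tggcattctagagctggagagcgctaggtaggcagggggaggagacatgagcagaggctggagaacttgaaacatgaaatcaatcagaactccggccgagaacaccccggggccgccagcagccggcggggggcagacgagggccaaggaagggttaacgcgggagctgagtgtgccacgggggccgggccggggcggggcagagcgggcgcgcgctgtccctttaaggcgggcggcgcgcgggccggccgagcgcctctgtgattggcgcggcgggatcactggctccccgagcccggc
Hes5: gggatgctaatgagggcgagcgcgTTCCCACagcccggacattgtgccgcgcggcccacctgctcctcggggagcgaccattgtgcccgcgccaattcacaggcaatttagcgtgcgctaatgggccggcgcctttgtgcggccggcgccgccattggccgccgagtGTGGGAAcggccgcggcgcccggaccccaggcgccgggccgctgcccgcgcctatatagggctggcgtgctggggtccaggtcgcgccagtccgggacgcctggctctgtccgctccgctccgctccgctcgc
The Hes5 window holds the RBPJ letters at 2 places, at -226 to -220 on the other strand and at -83 to -77 on the strand of the gene, counted from the start site as 0. The Axin2 window holds none of the motifs, which says only that these letters are not in this window. The RBPJ letters occur in 6.38% of 32851 promoter windows, or in 7.25% of 27025 genes with a window. Among the 39 members with a window they occur in 3, Hes5, Tcf7l1 and Wnt9a. The TCF/LEF letters occur in 3.73% of windows and 4.29% of genes, and in 3 of the 39 members, Maml1, Wnt5b and Wnt11. The KLF letters occur in 7.95% of windows and 9.05% of genes, and in 3 of the 39 members, Ctnnb1, Wnt2b and Wnt3a.

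The TCF factor genes lay on opposite sides of wild type. Tcf7l2, which encodes a DNA-binding partner of beta-catenin, read 7.40 and 8.08 in knockout against 7.31 and 6.98 in wild type. The difference of 0.60 ± 0.29 (SE, n = 2 per group; 95% confidence interval -0.17 to 1.36) was the highest of the 54 genes, 1.51-fold higher in knockout, with a limma adjusted p of 0.949. Knockout replicate 2 carried most of it: the difference was 0.26 without that array and 0.93 without knockout replicate 1. Tcf7l1, a TCF factor known mainly as a repressor, read 5.91 and 5.78 in knockout against 5.91 and 6.18 in wild type, differing by -0.20 ± 0.18, with knockout replicate 1 and wild-type replicate 1 level to the second decimal, and by -0.066 without wild-type replicate 2.

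The Notch receptor genes did not separate the genotypes. Notch1, the receptor that drives T cell commitment, read 6.34 and 6.72 in knockout against 6.64 and 6.81 in wild type. Its difference of -0.19 ± 0.20 (SE, n = 2 per group; 95% confidence interval -0.73 to 0.35; limma adjusted p = 0.966) was -0.0014 without knockout replicate 1. Notch2, which is needed for marginal zone B cells in mice, read 6.96 and 7.20 in knockout against 7.12 and 6.78 in wild type. For these receptors the groups overlapped and the difference was smaller than the wider gap between replicates.

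The other Notch receptors showed still smaller differences. Notch3 read 6.15 and 6.08 in knockout against 6.12 and 6.22 in wild type. Notch4, an endothelial Notch receptor, read 5.96 and 6.25 in knockout against 6.24 and 6.06 in wild type. Both differed by -0.05, with 95% confidence intervals of -0.46 to 0.36 for Notch3 and -0.54 to 0.44 for Notch4. A further 6 probe sets, which list the symbol of a pathway gene together with that of another gene, were left out.

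Of the 5 Notch ligand genes none separated the groups. Jag2, a Jagged ligand, read 5.91 and 5.37 in knockout against 6.13 and 5.84 in wild type, differing by -0.35 ± 0.25 that was -0.076 without knockout replicate 2. Dll4, the Delta-like ligand that thymic epithelium presents to incoming progenitors, read 6.07 and 6.19 in knockout against 6.20 and 5.58 in wild type. Wild-type replicate 2 was the low array, and without it the difference of 0.24 ± 0.26 became -0.071. Jag1, Dll1 and Dll3 were within 0.05 of 0, at -0.0020, -0.043 and -0.017.

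In the nuclear complex, Rbpj gave a different answer from each of its probe sets. The brighter probe set read 8.26 and 7.96 in knockout against 8.13 and 7.45 in wild type, differing by 0.32 ± 0.29 (SE, n = 2 per group; limma adjusted p = 0.958) with overlap. The dimmer probe set read 4.66 and 4.71 in knockout against 5.16 and 5.03 in wild type, differing by -0.41 ± 0.16 (limma adjusted p = 0.945) without overlap. Rbpj therefore has no settled direction, and the mean of both probe sets differed by -0.043. Maml1, a Mastermind coactivator gene, read 6.16 and 6.33 in knockout against 6.13 and 6.62 in wild type, and its groups overlapped.

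The Hes and Hey genes showed no shared shift. Hes1, the classical Notch target, read 5.67 and 5.56 in knockout against 5.37 and 6.54 in wild type. The wild-type arrays were 1.17 apart, the widest gap of any of the 54 genes, and the difference of -0.34 ± 0.41 (SE, n = 2 per group; limma adjusted p = 0.973) was 0.25 without wild-type replicate 2. Hes5, with the RBPJ letters in its promoter, read 7.49 and 7.53 in knockout against 7.71 and 7.51 in wild type, differing by -0.10 ± 0.16. Hes6, a family member that opposes Hes1 in neural cells of mice, read 6.49 and 6.53 in knockout against 6.71 and 6.62 in wild type. Its groups did not overlap, and the difference was -0.15 ± 0.15. Hey1 differed by 0.025 ± 0.20.

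**Figure D3:**
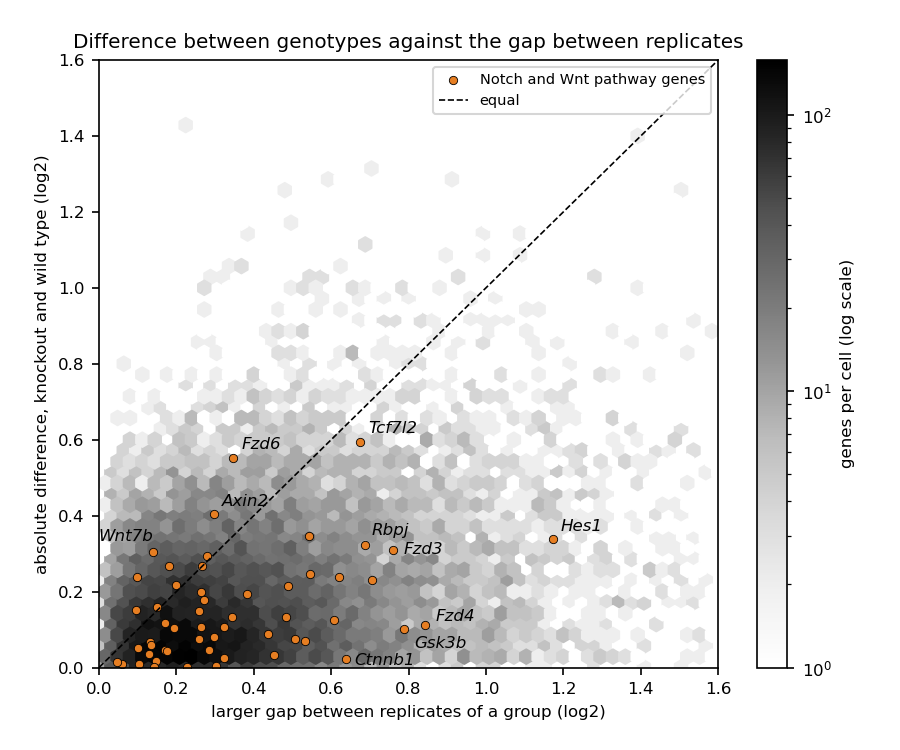
Absolute difference between knockout and wild type (y axis, log2) against the larger gap between the 2 replicates of a group (x axis, log2) for the 54 genes (orange) over all named genes (grey cells, log-scaled counts; 367 of 19938 genes lie outside the axes). Fzd6, Axin2 and Wnt7b lie above the dashed line of equality, while Hes1, Gsk3b, Fzd4 and Ctnnb1 lie far to the right of it.

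The surrounding machinery of both pathways was examined through 10 further lists that hold 137 genes, of which 134 were measured. None of the 134 passed (limma, smallest adjusted p 0.945), and 7 had an unadjusted p under 0.05, where 4.81% of all genes did. Knockout was higher for 64 and lower for 70. Without overlap, 19 lay above wild type, where 14.5% of all genes did so, and 21 below, where 18.6% did so. At least 1.5-fold apart without overlap were 5 above, where 3.04% of all genes lay, and 2 below, where 2.09% did.

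The gene of these lists with the largest difference was Dtx3, a Deltex family ubiquitin ligase gene. It read 7.17 and 7.63 in knockout against 6.16 and 6.23 in wild type, differing by 1.21 ± 0.21 (SE, n = 2 per group; 95% confidence interval 0.64 to 1.77), or 2.31-fold higher in knockout, with a limma adjusted p of 0.945. Every knockout reading was above every wild-type reading, and the difference ran from 0.98 to 1.43 with an array left out. Its list, 14 Notch target and Deltex genes with 10 higher and 4 lower, had a median of 0.11; Dtx4, another Deltex gene, read 6.04 and 6.45 in knockout against 5.73 and 6.25 in wild type, with overlap.

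Of 17 Notch processing and trafficking genes, 12 were lower and 5 higher in knockout, and 5 lay below wild type without overlap, where 18.6% of all genes did so. Aph1a, a gamma-secretase subunit gene, read 6.41 and 6.66 in knockout against 6.90 and 7.04 in wild type, differing by -0.44 ± 0.18, and its other probe set gave the same -0.44. Adam10, which encodes a protease that cleaves the receptor, read 7.93 and 8.003 in knockout against 8.19 and 8.33 in wild type, differing by -0.29 ± 0.16. Both gave knockout readings below all wild-type readings.

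The 6 glycosylation genes held the enzyme genes that add the first sugars to Notch. Poglut1, which adds O-glucose, read 5.66 and 5.32 in knockout against 6.38 and 5.78 in wild type, differing by -0.59 ± 0.27 that was -0.29 without wild-type replicate 1. Pofut1, which adds O-fucose, read 6.28 and 6.79 in knockout against 6.19 and 6.21 in wild type, differing by 0.33 ± 0.23 that was 0.076 without knockout replicate 2. These enzymes lay on opposite sides of wild type, and the list median was -0.071.

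Of 18 nuclear cofactors and repressors of Notch, 10 were higher and 8 lower. Tle4, a Groucho corepressor gene, read 6.53 and 6.24 in knockout against 5.46 and 5.98 in wild type, differing by 0.66 ± 0.25. Cdk8, a Mediator kinase gene, read 9.69 and 8.33 in knockout against 7.84 and 8.90 in wild type, differing by 0.63 ± 0.59. Tle4 did not overlap, whereas the Cdk8 readings of the genotypes were interleaved.

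On the Wnt side, Wls encodes the carrier that brings Wnt proteins to the cell surface. It read 7.38 and 7.38 in knockout against 6.55 and 6.85 in wild type, differing by 0.67 ± 0.18 (SE, n = 2 per group; 95% confidence interval 0.20 to 1.15), or 1.59-fold higher in knockout, with a limma adjusted p of 0.945. The knockout arrays were nearly level and both stood above wild type, and the difference ran from 0.52 to 0.82 with an array left out. The other 12 genes of Wnt secretion and non-canonical reception differed by -0.12 to 0.16, and the list median was -0.0076. Ptk7, a pseudokinase co-receptor gene, read 5.90 and 5.80 in knockout against 6.11 and 5.83 in wild type.

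Of 15 inhibitor genes 9 were lower, with Kremen2, a receptor for Dickkopf proteins, at 5.74 and 5.82 in knockout against 6.00 and 6.32 in wild type, differing by -0.38 ± 0.18 without overlap. Sfrp2, a secreted Frizzled-related inhibitor gene chosen after its values were seen, had the largest difference of the list. It read 4.03 and 4.13 in knockout against 4.57 and 4.74 in wild type, or -0.57 ± 0.16 without overlap (limma adjusted p = 0.945). These readings were low, with a mean over all arrays of 4.37, below the median of all genes, 5.77. Apcdd1, an inhibitor gene, differed by 0.19 ± 0.21. Of 9 R-spondin axis genes 5 were lower. Znrf3, a ubiquitin ligase that removes Frizzled receptors, read 6.22 and 5.87 in knockout against 6.50 and 6.16 in wild type, with overlap, and Rspo1, which encodes an R-spondin, differed by -0.034 ± 0.16.

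In the cytoplasm, 14 of 22 genes were higher in knockout and the list median was 0.13. Amer1, a scaffold gene that binds APC, read 6.82 and 7.65 in knockout against 6.05 and 6.70 in wild type, differing by 0.86 ± 0.38 that was 0.44 without knockout replicate 2. It is the only pathway gene named here that lies on the X chromosome, beside the sex-linked difference between the groups. Senp2, a SUMO protease gene, read 6.33 and 6.74 in knockout against 5.90 and 6.08 in wild type, differing by 0.54 ± 0.21. Both showed no overlap between the groups.

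In the nucleus, 7 of 12 Wnt factors were higher, with a median of 0.13. Tbl1xr1, a subunit gene of a corepressor exchange complex, read 9.42 and 9.61 in knockout against 9.18 and 9.21 in wild type, differing by 0.32 ± 0.16, but its other probe set gave -0.035. Bcl9, which links beta-catenin to Pygopus, read 7.12 and 6.28 in knockout against 7.47 and 6.64 in wild type, so replicate 1 was again the higher array in both genotypes. Of 16 Wnt target genes 9 were lower and 7 higher, and 5 lay below wild type without overlap, where 18.6% of all genes did so. Jun, an AP-1 gene that also responds to many other stimuli, read 10.36 and 10.69 in knockout against 11.0002 and 11.06 in wild type, differing by -0.51 ± 0.19.

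**Figure D4:**
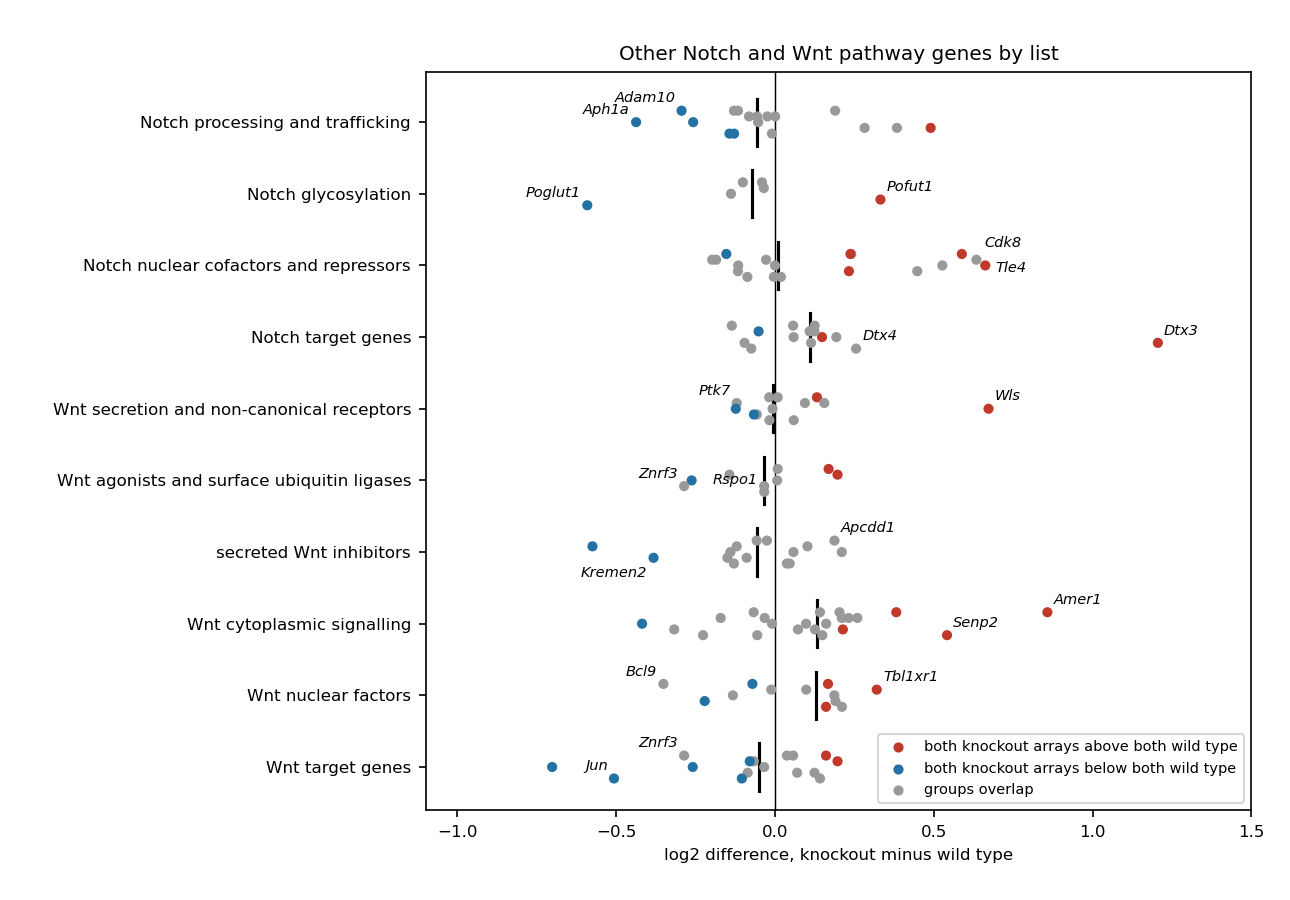
Difference in log2 intensity, knockout minus wild type, for the measured genes of 10 further Notch and Wnt lists (n = 2 arrays per group), with a black bar at each list's median; a gene in 2 lists is drawn in both. Dtx3 (1.21), Amer1 (0.86) and Wls (0.67) lie farthest to the right, and the medians lie between -0.071 and 0.13.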

How the data were processed

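Arrays of 4 samples were analysed, with groups and replicate numbers taken from the titles. The authors deposited linear intensity values for each probe set, made with RMA in Affymetrix Expression Console as far as the submitters' processing notes go, without versions or settings. All values were converted to log2. Precision is limited by how few arrays there are. Of 35554 probe sets deposited, 6615 that stand ahead of any annotated one were dropped as presumed controls. The annotation of 2016 gave 1 symbol for 21789 of the remaining 28939, and Entrez IDs of 21698 were found in the RefSeq table for GRCm38.p6, used for current symbols and chromosomes. Differences between genotypes were fitted by limma 3.58.1 under R 4.3.3 (lmFit, eBayes, two-sided, Benjamini-Hochberg over all probe sets tested, threshold 0.05, 2 residual degrees of freedom), and adjusted p-values and standard errors come from that fit. The steps were tested on simulated data. Genes were described with readings on every array where their mean lay above the gene median of 5.77, where they passed, or where they had 1 of the 2 largest differences of their role; of each further list, up to 2 genes above that median with the largest differences were named. Other genes named were chosen after their values were seen. The members and lists were chosen with earlier results of these data known.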

Additional observations from a re-analysis of the deposited data

How the results depend on the processing

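No alternative called any of the 54 genes or any of the 134 further pathway genes; over the 54 genes, the smallest adjusted p under the alternatives lay between 0.603 (without wild-type replicate 1) and 0.9998. The count of probe sets called anywhere on the array, 1 in the fit as reported, was 0 with quantile normalization again, an offset of 32, an intensity trend with or without robust estimation, the replicate block and the leading probe sets kept, and 0 to 0 with any array left out; such fits give the remaining array of a group the spread of the pair. The replicate block called 0 of the 54 genes as well. The labels do not say that equal replicate numbers share a mouse, and the deviations of equal numbers correlated at 0.0434 across probe sets. The 1 gene at least 1.5-fold apart without overlap, Tcf7l2, became 0 genes with cyclic loess, quantile normalization, the offset and a 2-fold threshold, and 0 to 4 with an array left out. The median difference of the 54 genes ran from -0.064 (without knockout replicate 2) to -0.0050 with an array left out, and stood at 0.0015 with cyclic loess. Of the values of single genes under an alternative, 661 kept direction and side of the threshold and 40 reversed; since no gene passed, keeping its side says little. The cause of the reversals was not tested. Ctnnb1 stood at -0.0056 with cyclic loess and -0.029 with quantile normalization, Wnt5b at -0.0065 with quantile normalization, Fzd9 at 0.00092 with the offset and Rbpj at -0.043 with the mean of its probe sets. With an array left out, the Wnt ligands Wnt4 ran from -0.18 to 0.33, Wnt5b from -0.15 to 0.16, Wnt9a from -0.062 to 0.043 and Wnt9b from -0.58 to 0.12. Among receptors, Fzd3 ran from -0.070 to 0.69, Fzd5 from -0.0078 to 0.039, Fzd7 from -0.0087 to 0.12, Fzd9 from -0.11 to 0.11, Fzd10os from -0.24 to 0.024 and Lrp5 from -0.18 to 0.43. Axin1 ran from -0.19 to 0.26, Ctnnb1 from -0.30 to 0.34 and Gsk3b from -0.29 to 0.49. Some differences kept their sign but shrank by over 1.5 times: without wild-type replicate 1, Wnt10a stood at -0.18, Hes5 at -0.0079 and Tle4 at 0.40, without wild-type replicate 2, Kremen2 stood at -0.22, and without knockout replicate 2, Wnt11 stood at -0.031, Znrf3 at -0.11 and Senp2 at 0.34. On the Notch side, Notch2 ran from -0.038 to 0.31, Notch3 from -0.10 to 0.00030, Notch4 from -0.19 to 0.095, Dll4 from -0.071 to 0.55, Maml1 from -0.37 to 0.11, Rbpj from -0.022 to 0.67 and Hes1 from -0.92 to 0.25. In the further lists, Cdk8 ran from -0.048 to 1.32, Dtx4 from -0.0077 to 0.52, Ptk7 from -0.26 to 0.019, Rspo1 from -0.084 to 0.016, Apcdd1 from -0.036 to 0.41 and Bcl9 from -0.77 to 0.070. No background measure was analysed, and leaving out dim probe sets kept 36 of the 54 genes.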

Other observations

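Several genes of the further lists fell outside the naming rule and were chosen after their values were seen. Fosl1, an AP-1 gene and a Wnt target, read 5.28 and 5.53 in knockout against 6.43 and 5.78 in wild type, the lowest difference of the lists at -0.70 ± 0.27 (SE, n = 2 per group). Maml3, a Mastermind coactivator gene, read 6.94 and 7.24 in knockout against 6.54 and 6.47 in wild type, differing by 0.59 ± 0.18, whereas its relative Maml1 differed by -0.13 ± 0.23. Frat1, which encodes a GSK3-binding protein, read 5.98 and 6.10 in knockout against 6.48 and 6.43 in wild type. None of these passed in limma (adjusted p = 0.945 for each). The readings of Fosl1, Maml3 and Frat1 did not overlap between the genotypes, and neither did those of 33.2% of all genes.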
